A study of Mus musculus with 8 samples.

Results

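The genes described are 33 genes of cholesterol and fatty acid synthesis: the enzymes of the mevalonate and sterol pathways, the enzymes that make and desaturate fatty acids, and the proteins that control both. They were chosen by name, with earlier results of these data known. Of the 33, 32 had a probe of their name on the array, and all 32 were well above background, by the scanner software's flag, on all 8 arrays, where 2 arrays were required. Acat2, which makes acetoacetyl-CoA, had no probe of its name. A probe named Acat3 that also lists an Acat2 transcript was not counted. The 32 genes stand among 20078 genes or unnamed transcripts tested.

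The cells were RAW264.7, a macrophage-like mouse line, grown in RPMI1640 with 5% serum. A melatonin arm was treated with 1 mM melatonin for 1 h and then given no LPS or LPS for 1, 3 or 5 h, and an arm without melatonin was given no LPS or LPS for the same times. LPS, a Toll-like receptor 4 ligand from E. coli, was used at 100 ng/ml. Each of the 8 conditions was measured on 1 single-colour array, so no condition was replicated. The arrays carried 1 dye and shared a slide, on which arm matched the slide row and LPS time the slide column, so arm and row, and time and column, cannot be told apart. No array without LPS was taken at the later times, so LPS and hours in culture cannot be told apart either. For the melatonin arm the labels disagree. Title, source and description give the times used here. The treatment field gives LPS for 1, 3 and 5 h to the arrays titled 0, 1 and 3 h. It has no entry for the array titled 5 h. The fit with that field's times left out the array without an entry, so it held only the untreated array without LPS. The parts of the changed times and of the missing array in its results were not told apart. With the times of the treatment field no LPS comparison called any gene on the array, so every LPS call below rests on the titles.

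Cells make cholesterol from acetyl-CoA through mevalonate, isoprenoid diphosphates, squalene and lanosterol. The pathway is controlled by SREBP2, a membrane-bound transcription factor that SCAP carries to the Golgi when sterols are low and that INSIG proteins hold back when sterols are plentiful. SREBP1, its relative, acts mainly on fatty acid synthesis genes, and its gene is also induced by the oxysterol receptor LXR. Here 20 measured genes, the sterol enzymes with Insig1 and Stard4, are called SREBP2-type, and 8 fatty acid genes are called SREBP1-type. Macrophages rewire both pathways when Toll-like receptors are engaged.

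The share of probes well above background ran from 47.0% to 53.0% over the arrays. All 7 macrophage markers examined were well above background on all 8 arrays. Of 6 markers of other cell types, Cd3e, a T cell marker, was well above background on 8 arrays, Cd3g was on 1, and Col1a1, Col3a1, Epcam and Krt8 were on 0. Levels are log2 of the processed signal over the 75th percentile of its array, and they do not rank genes against each other. A call is a Benjamini-Hochberg adjusted p under 0.05 in a limma fit over all 20078 features. LPS differences come from 2 arrays at a time, 1 of each arm, against the 2 without LPS, and melatonin differences from 4 arrays against 4. The p-values measure only how far single arrays depart from additive effects of LPS time and melatonin. In such bulk RNA, fewer cells of a type and less RNA per cell cannot be told apart.

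After 1 h of LPS the feedback regulator Insig1 and the enzymes Hsd17b7 and Idi1, all SREBP2-type, were higher. Insig1, which retains SCAP and SREBP in the endoplasmic reticulum, had levels of -0.98, 0.59, -0.47 and -0.18 at 0, 1, 3 and 5 h of LPS in the melatonin arm, and of -0.39, 1.39, 0.15 and 0.45 in the arm without melatonin. Its probe lies at chr5:28404246-28404305 (mm9). Insig1 was highest at 1 h in both arms, and both arrays without LPS were the lowest of their arm. It rose by 1.68 ± 0.10 (log2, SE; adjusted p = 0.00191), a 3.20-fold difference. Hsd17b7, a ketosteroid reductase of the sterol pathway, rose by 0.59 ± 0.10 (adjusted p = 0.0479). Idi1, the isopentenyl diphosphate isomerase, rose by 0.48 ± 0.07 (adjusted p = 0.0372). Both stayed close to the threshold.

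Hmgcs1, the cytosolic HMG-CoA synthase, was 1.23 ± 0.23 higher at 1 h but missed the threshold (adjusted p = 0.0685). Its levels were 3.23, 4.11, 3.30 and 3.50 at 0, 1, 3 and 5 h in the melatonin arm, against 3.69, 5.26, 4.37 and 4.99 in the arm without melatonin. The 1 h array was the highest of each arm. In all, 3 of 32 genes rose and 0 fell at 1 h, where 1.67% and 0.279% of all features rose and fell, 1.95% in either direction. By limma, 7 of 32 had an unadjusted p under 0.05, as had 14.9% of all features. The median difference was 0.14 in SREBP2-type genes and -0.06 in SREBP1-type genes, against -0.01 over all features. With any array left out Insig1 was still called and Hsd17b7 and Idi1 were not. Hmgcs1 was called without the melatonin array, and otherwise Insig1 was the 1 gene called.

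**Figure D1:**
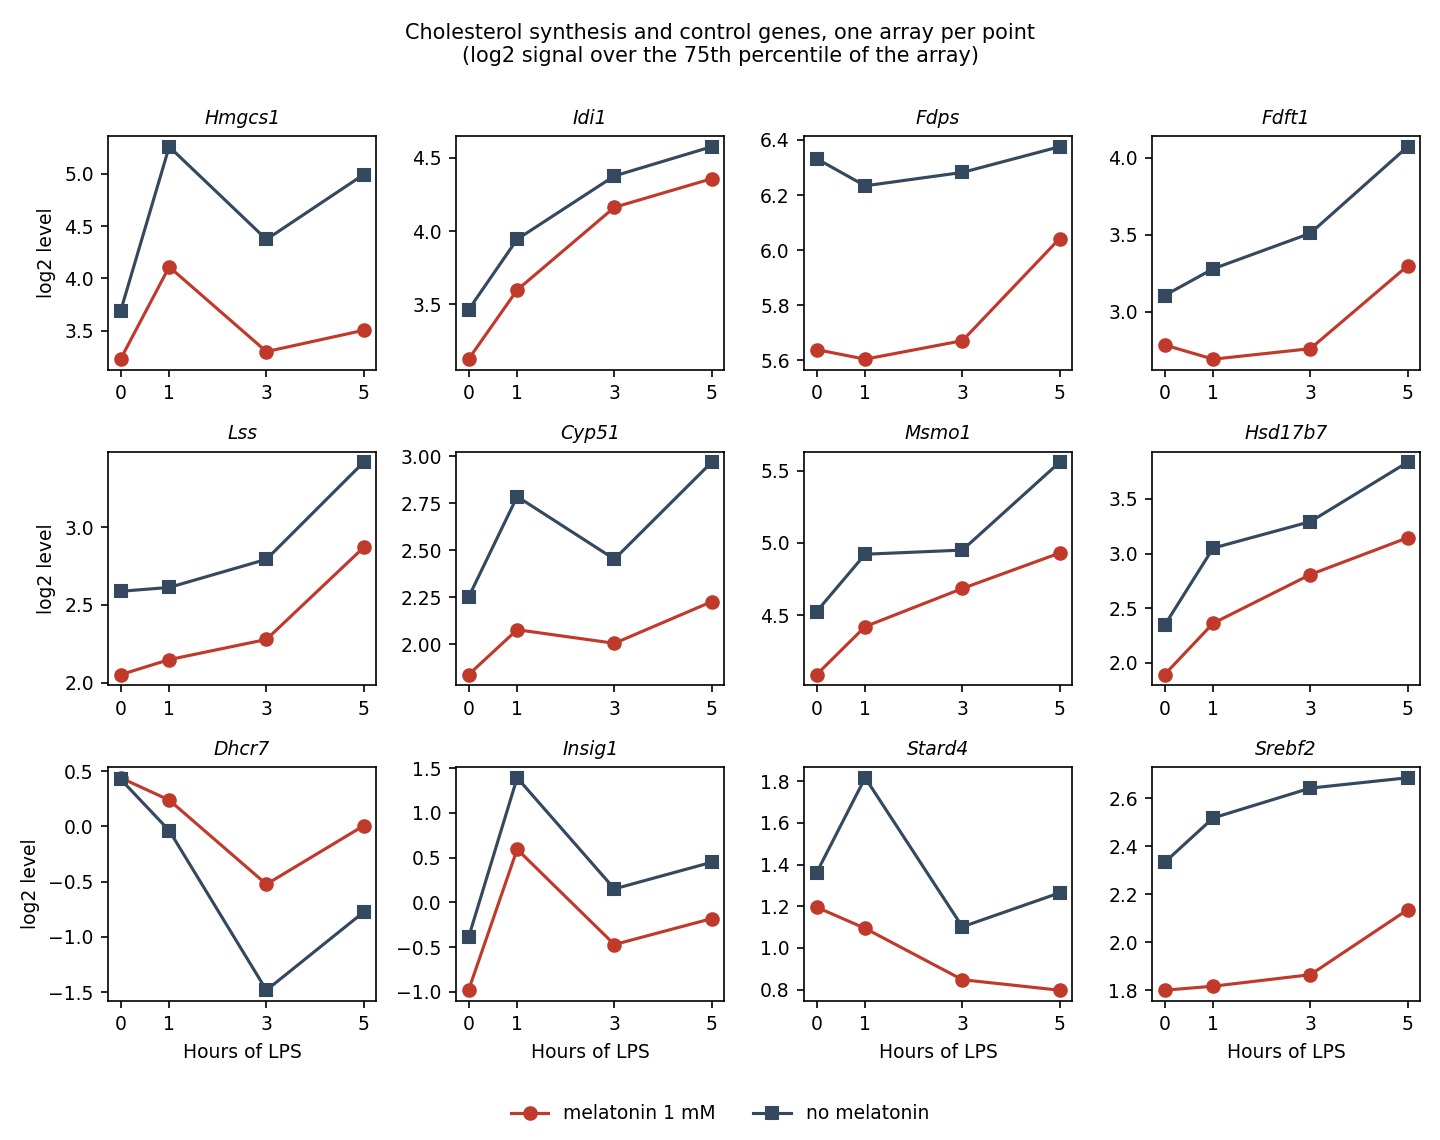
Levels of 12 cholesterol synthesis and control genes by hours of LPS, with log2 level on a vertical axis scaled to each panel and 1 array per point, melatonin arm in red circles and arm without melatonin in dark squares. Insig1 and Hmgcs1 peak at 1 h in both arms, while Idi1 and Hsd17b7 are higher at each later time, and most red lines lie below the dark ones.

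At 3 h 5 of the 20 SREBP2-type genes rose and 5 fell. Of 32 genes 5 rose and 10 fell, where 18.7% and 15.1% of all features rose and fell, 33.7% in either direction. The 5 that rose were SREBP2-type: Idi1 (0.98 ± 0.07, adjusted p = 0.000808), Hsd17b7 (0.93 ± 0.10), Ggps1 (0.79 ± 0.08), Insig1 (0.53 ± 0.10) and Msmo1 (0.51 ± 0.09). Ggps1 makes geranylgeranyl diphosphate for protein prenylation, and Msmo1 removes methyl groups from sterol intermediates. SREBP2-type genes that fell were Dhcr7 (-1.44 ± 0.24, adjusted p = 0.00817), Mvd (-0.55 ± 0.09), Mvk (-0.54 ± 0.11), Tm7sf2 (-0.41 ± 0.11) and Sqle (-0.34 ± 0.10). Dhcr7 reduces the last sterol intermediate on one route to cholesterol, Mvk and Mvd act on mevalonate and its diphosphate, Tm7sf2 is a sterol reductase, and Sqle is squalene epoxidase. The median difference over the 20 SREBP2-type genes was 0.10, against 0.06 over all features. Dhcr7, Mvd, Mvk, Tm7sf2 and Sqle each lost the call with some array left out, as did Insig1 and Msmo1. Idi1, Hsd17b7 and Ggps1 kept it with any array left out.

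The other falls at 3 h were in fatty acid genes and in Srebf1. Scd2, a stearoyl-CoA desaturase, had levels of 5.62, 5.33, 3.88 and 3.98 at 0, 1, 3 and 5 h in the melatonin arm, and of 5.68, 5.28, 3.00 and 3.04 in the arm without melatonin. Its probe lies at chr19:44381024-44381083 (mm9). The 3 h and 5 h arrays lay below all arrays of the earlier times. It fell by 2.21 ± 0.27 at 3 h (adjusted p = 0.00345), a 4.62-fold difference. Elovl6, which elongates palmitate, fell by 1.16 ± 0.22, Scd1, the relative of Scd2, by 0.73 ± 0.13, and Fads1, a desaturase of polyunsaturated fatty acids, by 0.42 ± 0.12. Srebf1, the gene of SREBP1, fell by 0.57 ± 0.09 (adjusted p = 0.00744). The SREBP1-type median was -0.30. Sqle differed by -0.19 at 3 h without the LPS 3 h array (adjusted p = 0.217). Without the untreated or the LPS 3 h array fewer genes were called at 3 h, as were fewer of all features. Ggps1, Hsd17b7, Idi1 and Scd2 were called in each case.

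At 5 h 11 of the 20 SREBP2-type genes rose. Of 32 genes 13 rose and 10 fell, where 24.9% and 19.3% of all features rose and fell, 44.2% in either direction. SREBP2-type genes made up 4 of the falls, and SREBP1-type genes 1 of the rises and 4 of the falls. Quantile normalization gave 10 rises and 13 falls in place of 13 and 10.

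In the mevalonate part, Idi1 rose by 1.17 ± 0.07 (adjusted p = 0.000363), Ggps1 by 0.85 ± 0.08 and Hmgcs1 by 0.79 ± 0.23 (adjusted p = 0.0334), and Mvk fell by 0.47 ± 0.11. Hmgcs1 differed by 0.40 without the untreated array (adjusted p = 0.123) and by 0.49 without the LPS 5 h array (adjusted p = 0.19). Idi1 had levels of 3.13, 3.60, 4.16 and 4.36 at 0, 1, 3 and 5 h in the melatonin arm, and of 3.46, 3.94, 4.38 and 4.58 in the arm without melatonin. Its probe lies at chr13:8891524-8891583 (mm9), and Idi1 was higher at each later time in both arms. Fdps, the farnesyl diphosphate synthase, was 0.22 ± 0.09 higher (adjusted p = 0.0958) and Mvd 0.07 ± 0.09 higher, and neither was called. Pmvk, the phosphomevalonate kinase, was not called either (adjusted p = 0.989).

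From squalene to cholesterol 7 of 11 genes rose, where 24.9% of all features did. They were Hsd17b7, Msmo1, Lss, Sc5d, Fdft1, Cyp51 and Nsdhl. Hsd17b7 had levels of 1.89, 2.36, 2.81 and 3.14 at 0, 1, 3 and 5 h in the melatonin arm, and of 2.34, 3.05, 3.29 and 3.84 in the arm without melatonin. Its probe lies at chr1:171882591-171882650 (mm9). Hsd17b7 was higher at each later time in both arms and rose by 1.37 ± 0.10 (adjusted p = 0.000479), a 2.59-fold difference. Msmo1 rose by 0.94 ± 0.09, and Lss, the lanosterol synthase, by 0.82 ± 0.07 (adjusted p = 0.000871). Sc5d, a sterol desaturase, rose by 0.75 ± 0.10, Fdft1, the squalene synthase, by 0.74 ± 0.12, Cyp51, the lanosterol demethylase, by 0.55 ± 0.11 and Nsdhl, a sterol dehydrogenase, by 0.44 ± 0.09. Not all steps followed.

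Dhcr7 fell by 0.82 ± 0.24 (adjusted p = 0.0358), Tm7sf2 by 0.65 ± 0.11 and Ebp, a sterol isomerase, by 0.51 ± 0.13. Dhcr7 had levels of 0.44, 0.24, -0.52 and 0.01 at 0, 1, 3 and 5 h in the melatonin arm, and of 0.43, -0.04, -1.48 and -0.78 in the arm without melatonin. Its 3 h array was the lowest of each arm. Dhcr7 differed by -0.49 at 5 h without the untreated array (adjusted p = 0.2), and Ebp by -0.31 without the LPS 5 h array (adjusted p = 0.0849). Sqle was 0.11 ± 0.10 higher and was not called.

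Among control genes at 5 h, Insig1 rose by 0.82 ± 0.10 (adjusted p = 0.00199) and Srebf2, the gene of SREBP2, by 0.34 ± 0.10 (adjusted p = 0.0309). Srebf1 fell by 0.47 ± 0.09 and Insig2, the relative of Insig1, by 0.33 ± 0.09. Scap, at -0.08 ± 0.07, and Stard4, a cytosolic cholesterol carrier, at -0.25 ± 0.15, were not called. The probe used for Stard4 and its other probe disagreed: the other one was 0.90 higher at 5 h.

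Fatty acid genes fell at 5 h in 4 of 8 cases, where 19.3% of all features fell. Scd2 fell by 2.14 ± 0.27 (adjusted p = 0.0025), Elovl6 by 1.25 ± 0.22, Scd1 by 1.01 ± 0.13 and Fads1 by 0.60 ± 0.12. Elovl6 had levels of 1.61, 1.49, 0.79 and 0.79 at 0, 1, 3 and 5 h in the melatonin arm, and of 1.96, 1.67, 0.44 and 0.28 in the arm without melatonin. Arrays at 3 and 5 h lay below those at 0 and 1 h. Acly, the ATP citrate lyase that supplies acetyl-CoA to both pathways, rose by 0.37 ± 0.10 (adjusted p = 0.027), and differed by 0.24 without the melatonin array (adjusted p = 0.143). Under quantile normalization the rise of Acly was not called (limma adjusted p = 0.646), and its call was kept in 5 of 10 alternative settings. Acaca, the acetyl-CoA carboxylase, at -0.18 ± 0.07, Fasn, the fatty acid synthase, at -0.02 ± 0.07, and Fads2, a desaturase, at -0.18 ± 0.10, were not called. The other 4 probes of Fads2 were lower by more, between -1.25 and -0.56. Without the untreated or the LPS 5 h array fewer genes were called at 5 h, as were fewer of all features. Among the rises Fdft1, Ggps1, Hsd17b7, Idi1, Insig1, Lss, Msmo1 and Sc5d held with any array left out, and among the falls Elovl6, Scd1, Scd2 and Tm7sf2.

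**Figure D2:**
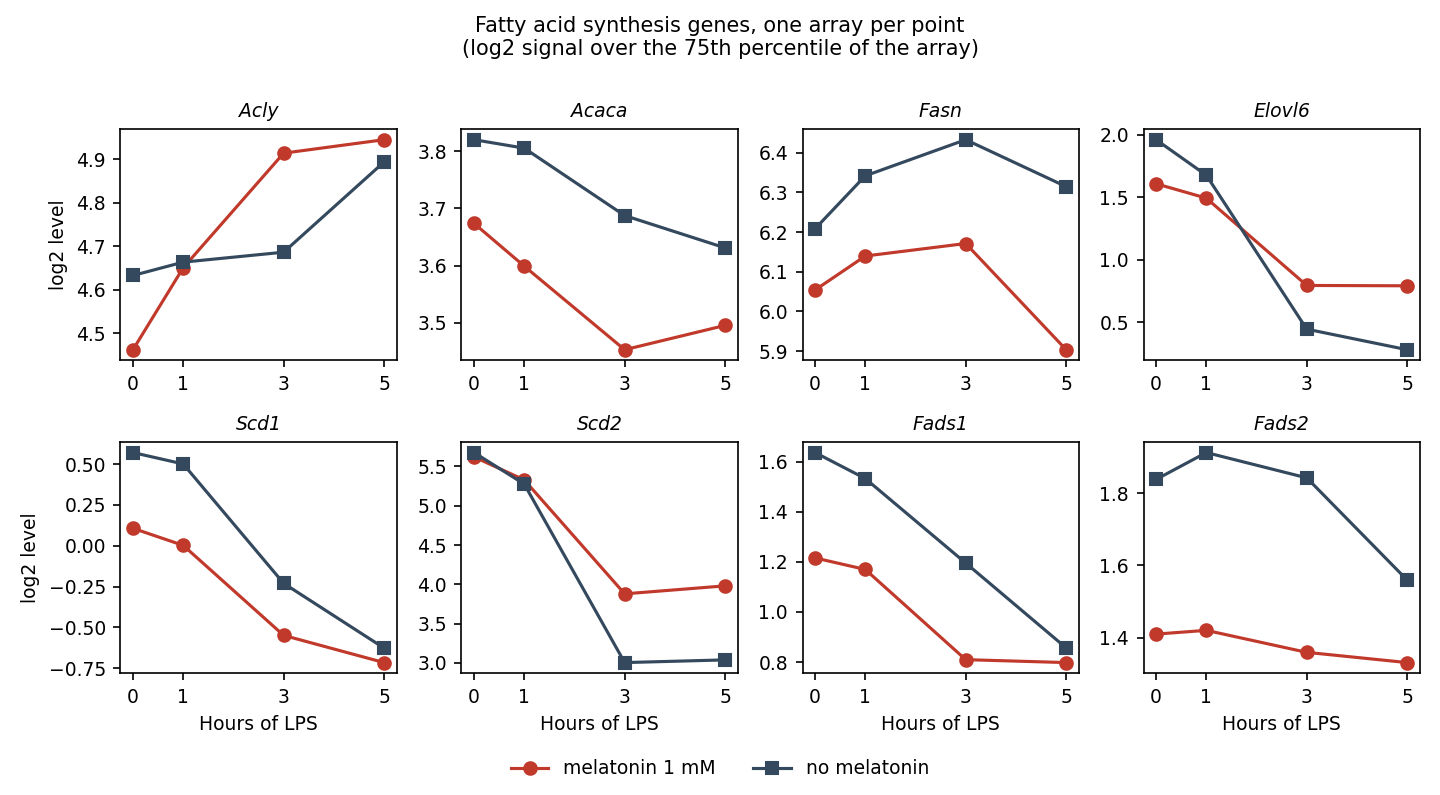
Levels of 8 fatty acid synthesis genes by hours of LPS, with log2 level on a vertical axis scaled to each panel and 1 array per point, melatonin arm in red circles and arm without melatonin in dark squares. Scd2, Scd1, Elovl6 and Fads1 are lower at 3 and 5 h in both arms, and Acly is higher.

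The promoters of Insig1, Idi1, Hsd17b7 and Hmgcs1, the 4 genes with the largest positive differences at 1 h of LPS, are shown so that their letters can be set beside that shared direction. Each runs 5′ to 3′ on the gene's strand, from 250 bases before the start to 50 after it, from RefSeq on GRCm38.p6. Capitals mark TCACNCCAC, a form of the sterol regulatory element, CCAAT, the box of NF-Y, a common partner of SREBPs, and CACGTG, an E-box, found on either strand, so that a CCAAT on the other strand reads ATTGG.
Insig1 promoter, chr5:28071162-28071461, plus strand: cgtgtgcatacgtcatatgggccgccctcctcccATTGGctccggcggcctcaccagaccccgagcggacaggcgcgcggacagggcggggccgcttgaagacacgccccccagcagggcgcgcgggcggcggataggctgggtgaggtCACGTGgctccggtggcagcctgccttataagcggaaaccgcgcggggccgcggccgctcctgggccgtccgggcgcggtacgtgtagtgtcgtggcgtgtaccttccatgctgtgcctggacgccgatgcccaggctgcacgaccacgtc
Idi1 promoter, chr13:8885356-8885655, plus strand: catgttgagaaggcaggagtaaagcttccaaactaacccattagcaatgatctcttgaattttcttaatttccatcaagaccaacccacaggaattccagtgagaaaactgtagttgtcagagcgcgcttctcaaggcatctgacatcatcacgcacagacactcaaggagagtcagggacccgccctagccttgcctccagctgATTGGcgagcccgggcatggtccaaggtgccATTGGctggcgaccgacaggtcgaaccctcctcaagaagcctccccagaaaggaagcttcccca
Hsd17b7 promoter, chr1:169969156-169969455, minus strand: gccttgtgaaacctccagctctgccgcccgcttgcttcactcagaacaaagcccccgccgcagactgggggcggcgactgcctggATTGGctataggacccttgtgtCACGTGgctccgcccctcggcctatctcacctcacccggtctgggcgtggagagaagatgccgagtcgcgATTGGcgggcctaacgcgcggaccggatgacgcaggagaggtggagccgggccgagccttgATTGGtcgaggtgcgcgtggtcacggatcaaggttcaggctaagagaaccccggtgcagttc
Hmgcs1 promoter, chr13:119690101-119690400, plus strand: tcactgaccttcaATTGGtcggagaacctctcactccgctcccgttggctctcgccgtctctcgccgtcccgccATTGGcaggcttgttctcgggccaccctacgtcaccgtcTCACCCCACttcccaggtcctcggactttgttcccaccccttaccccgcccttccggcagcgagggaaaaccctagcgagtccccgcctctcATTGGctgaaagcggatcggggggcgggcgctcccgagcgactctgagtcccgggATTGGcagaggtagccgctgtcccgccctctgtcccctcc

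Hmgcs1 held a TCACNCCAC, beginning 137 bases before the start, and was the 1 member of 26 with a promoter entry that held it. The 26 members had 34 windows, of which 2.94% held it, against 1.24% of all 32851 promoter windows. CCAAT stood in the promoters of all 4 genes and of 21 of the 26 members, among them 16 of 17 SREBP2-type and 2 of 5 SREBP1-type genes, and 64.7% of the members' windows held it, against 37.4% of all windows. An E-box stood in Insig1 and Hsd17b7 and in 5 of the 26 members, and 17.6% of the members' windows held it, against 7.15% of all windows. No window overlap of these motifs was seen in the 4 promoters. Members holding CCAAT also included genes that fell at 3 or 5 h of LPS: Dhcr7, Ebp, Insig2, Mvd, Mvk, Srebf1 and Tm7sf2. Dhcr7 held an E-box as well. A match is a description of the letters only. Fdps, Fdft1, Sqle, Stard4, Scd1, Scd2 and Fads1 had no promoter entry.

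Within single arms, the sterol and fatty acid genes parted most at 5 h. The median LPS difference of the 20 SREBP2-type genes was 0.04 at 1 h, 0.02 at 3 h and 0.38 at 5 h in the melatonin arm, and 0.21, 0.12 and 0.61 in the arm without melatonin. Those of the 8 SREBP1-type genes were -0.06, -0.31 and -0.30 in the melatonin arm, and -0.04, -0.29 and -0.53 in the arm without melatonin. Medians over all features lay between -0.01 and 0.09. At 5 h 13 of 20 SREBP2-type genes were higher and 5 lower in both arms, and 1 of 8 SREBP1-type genes was higher and 6 lower in both. Each is a difference of 2 arrays and has no test. Under quantile normalization the SREBP2-type median of the melatonin arm turned to -0.10 at 3 h and was 0.19 at 5 h. With the mean over all probes of a gene, the SREBP1-type medians at 3 and 5 h were -0.48 and -0.655 in the melatonin arm, and -0.70 and -0.96 in the arm without melatonin.

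**Figure D3:**
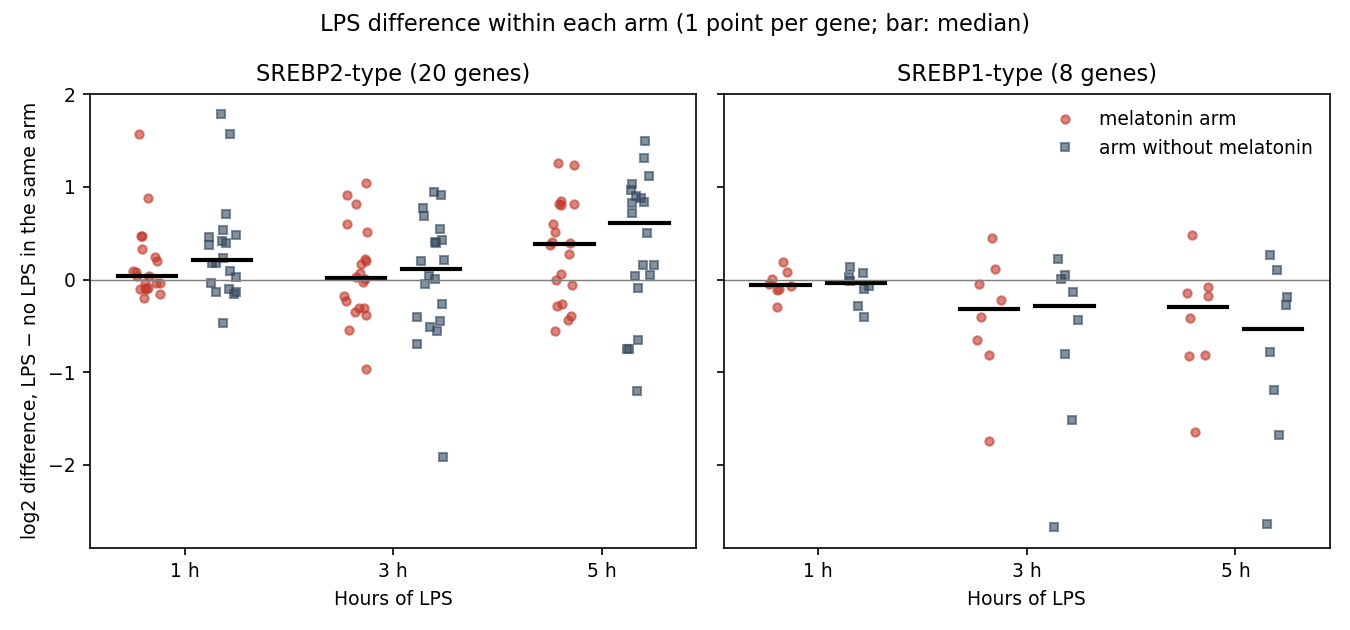
LPS difference (log2) of each gene within its own arm at 1, 3 and 5 h, with SREBP2-type genes at left and SREBP1-type genes at right, melatonin arm in red circles, arm without melatonin in dark squares and black bars for medians. The SREBP2-type medians at 5 h are 0.38 and 0.61, and the SREBP1-type medians -0.30 and -0.53.

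Between 1 and 3 h of LPS 2 of 32 genes rose and 9 fell, where 8.41% and 6.79% of all features rose and fell, 15.2% in either direction. Ggps1 (0.58 ± 0.08) and Idi1 (0.50 ± 0.07) rose. Falls ran from Mvd (-0.40 ± 0.09) to Scd2 (-1.86 ± 0.27) and included Insig1 (-1.15 ± 0.10, adjusted p = 0.00364), Dhcr7, Elovl6, Scd1, Srebf1, Mvk and Sqle. Without any of the 1 h or 3 h LPS arrays of either arm fewer genes were called, as were fewer of all features. Insig1 was called in each of these cases. Sqle differed by -0.29 without the LPS 3 h array (adjusted p = 0.167). Quantile normalization gave 1 rise and 12 falls.

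Between 3 and 5 h no member was called, where 0.0946% of all features were; 15 of 32 members had an unadjusted limma p under 0.05, where 14.6% of all features had. Of the 20 SREBP2-type genes 18 were higher at 5 h than at 3 h, with a median of 0.39, and of the 8 SREBP1-type genes 2 were, with a median of -0.12; over all features the median was 0.02. Mvd at 0.62 ± 0.09 (adjusted p = 0.0821) and Lss at 0.61 ± 0.07 (adjusted p = 0.0813) came nearest to the threshold.

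With melatonin most of these genes were lower. Of 32 genes 21 fell and 3 rose, where 25.4% and 15.3% of all features fell and rose, 40.7% in either direction. SREBP2-type genes made up 15 of the falls and SREBP1-type genes 5, and Srebf2 was the other. The median difference was -0.39 in SREBP2-type genes and -0.22 in SREBP1-type genes, against -0.10 over all features. At all 4 times 15 of 20 SREBP2-type genes and 5 of 8 SREBP1-type genes were lower with melatonin, as were 36.8% of all features.

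Hmgcs1 showed the largest fall with melatonin, 1.04 ± 0.16 (adjusted p = 0.00677), a 2.06-fold difference. At 0, 1, 3 and 5 h of LPS its melatonin difference was -0.46, -1.15, -1.07 and -1.49. All 4 were negative, and the pair without LPS differed least. Insig1 fell by 0.66 ± 0.07 (adjusted p = 0.00318), and each of its 4 pairs differed by between -0.80 and -0.59.

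Srebf2 fell by 0.64 ± 0.07 (adjusted p = 0.00328). Its levels were 1.80, 1.82, 1.86 and 2.13 at 0, 1, 3 and 5 h in the melatonin arm, and 2.33, 2.52, 2.64 and 2.69 in the arm without melatonin. No array of the melatonin arm reached the lowest array of the other arm. Scap rose by 0.26 ± 0.05 (adjusted p = 0.0128), Stard4 fell by 0.40 ± 0.11, and Insig2 (0.10 ± 0.06) and Srebf1 (-0.09 ± 0.06) were not called.

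In the mevalonate part Fdps fell by 0.57 ± 0.06 (adjusted p = 0.00374), Pmvk by 0.31 ± 0.08, Idi1 by 0.28 ± 0.05 and Ggps1 by 0.25 ± 0.06, and Mvk rose by 0.37 ± 0.08 (adjusted p = 0.0152). Fdps had levels of 5.64, 5.60, 5.67 and 6.04 at 0, 1, 3 and 5 h in the melatonin arm, and of 6.33, 6.23, 6.28 and 6.38 in the arm without melatonin, with no overlap. Mvd was 0.06 ± 0.06 higher and was not called.

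Of 11 genes from squalene to cholesterol 8 fell and 1 rose, where 25.4% and 15.3% of all features did. Fdft1 fell by 0.61 ± 0.09 (adjusted p = 0.00609), Cyp51 by 0.58 ± 0.08, Hsd17b7 by 0.58 ± 0.07 and Lss by 0.52 ± 0.05 (adjusted p = 0.00306). Msmo1 fell by 0.46 ± 0.07, Sc5d by 0.41 ± 0.07, Nsdhl by 0.37 ± 0.06 and Sqle by 0.36 ± 0.07. Tm7sf2 rose by 0.31 ± 0.07. Ebp (0.04 ± 0.09) and Dhcr7 (0.51 ± 0.17, adjusted p = 0.0569) were not called.

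Among 8 fatty acid genes 5 fell with melatonin, where 25.4% of all features fell. Fads2 fell by 0.41 ± 0.07, Scd1 by 0.34 ± 0.09, Fads1 by 0.31 ± 0.08, Fasn by 0.26 ± 0.05 and Acaca by 0.18 ± 0.05. Acly (0.02 ± 0.07), Elovl6 (0.08 ± 0.16) and Scd2 (0.45 ± 0.19, adjusted p = 0.107) were not called. Scd2 was 0.94 higher with melatonin at 5 h and -0.06 different without LPS. Under quantile normalization the fall of Fasn was not called (limma adjusted p = 0.293). In the deposited value table that of Msmo1 was not called (limma adjusted p = 0.0823). Of the 21 falls 13 held with any array left out (Cyp51, Fads2, Fasn, Fdft1, Fdps, Hmgcs1, Hsd17b7, Insig1, Lss, Msmo1, Nsdhl, Sc5d, Srebf2) and of the 3 rises 0. Without the LPS 1 h array 14 genes and 20.6% of all features were called, and without the melatonin + LPS 1 h array 14 and 20.8%. With the treatment field's times 9 genes and 18.2% of all features were called. All 7 macrophage markers were tested too, and 5 of them fell with melatonin, where 25.4% of all features fell. Their median difference was -0.36. Cd3e fell too, by 0.37, with levels of 0.26 to 0.35 in the melatonin arm and 0.58 to 0.71 in the arm without melatonin. The part of these markers in the results was not tested.

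**Figure D4:**
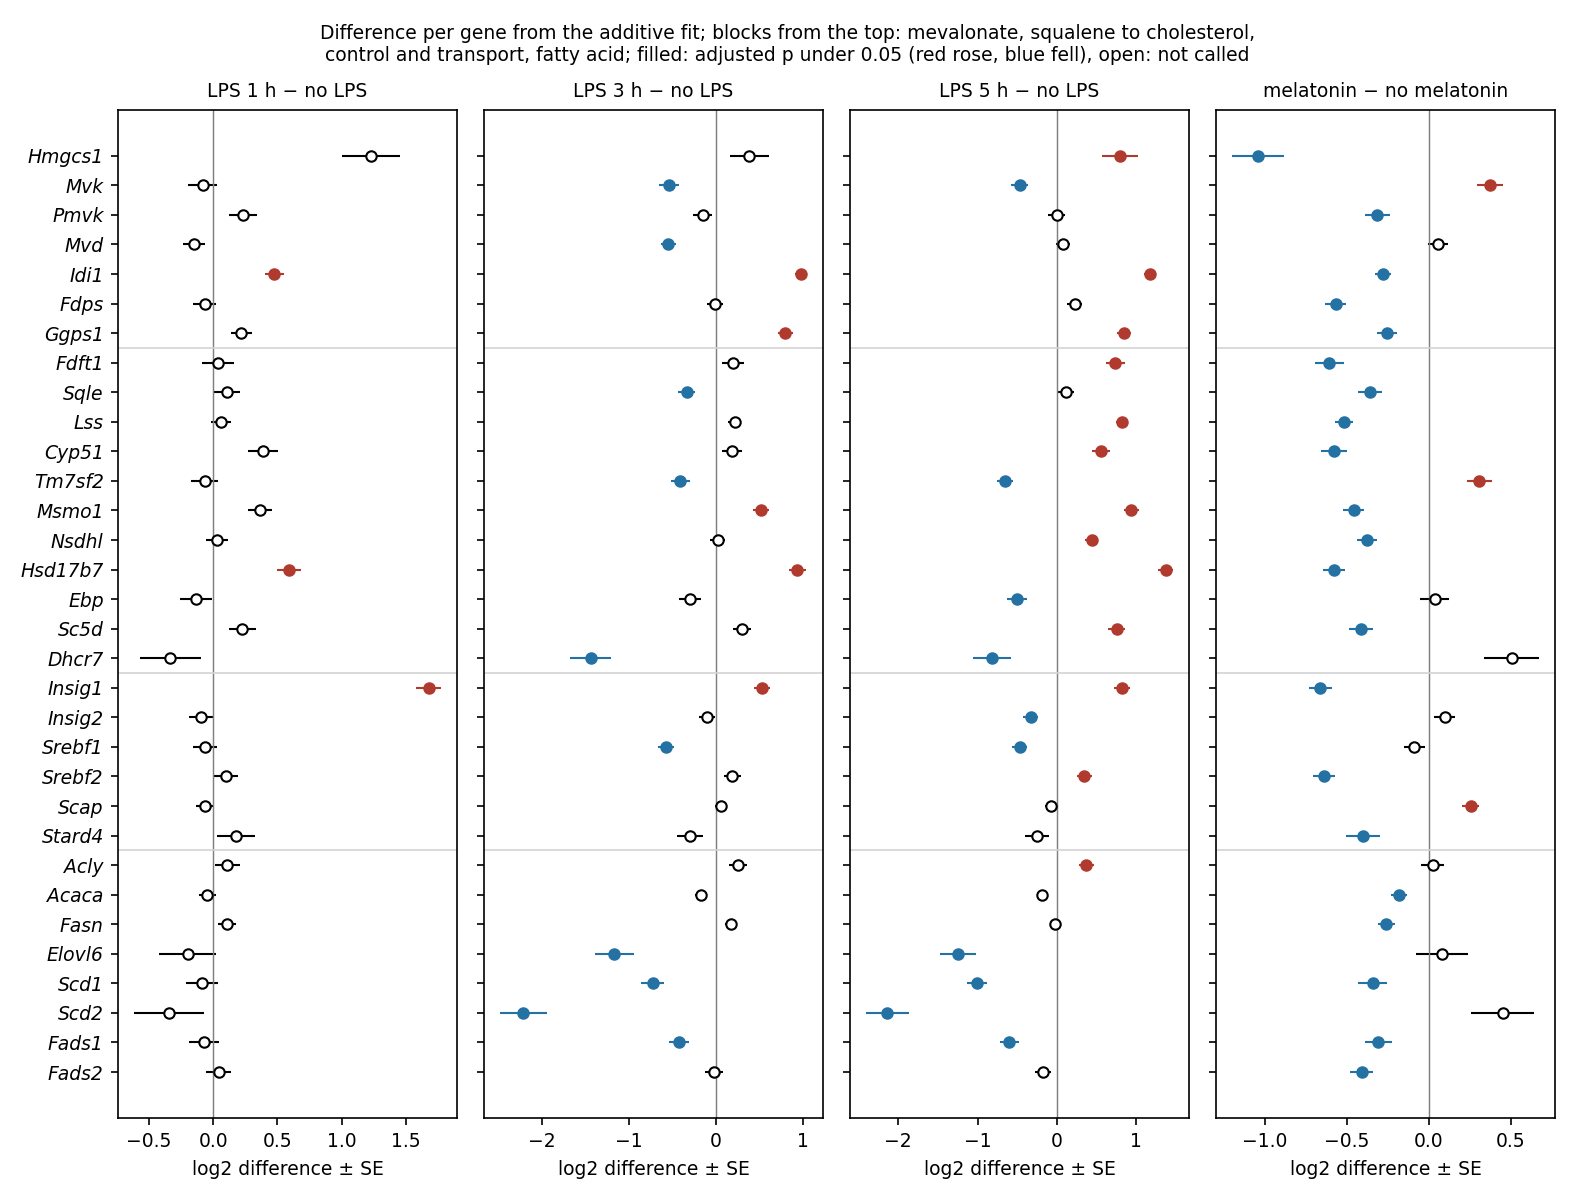
Log2 difference ± SE from the additive fit for each of the 32 genes, in panels for LPS 1, 3 and 5 h against no LPS and for melatonin against no melatonin, with blocks of genes by role; filled points are called, in red where higher and blue where lower. At 5 h of LPS 13 points are red and 10 blue, and for melatonin 3 are red and 21 blue.

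**Figure D5:**
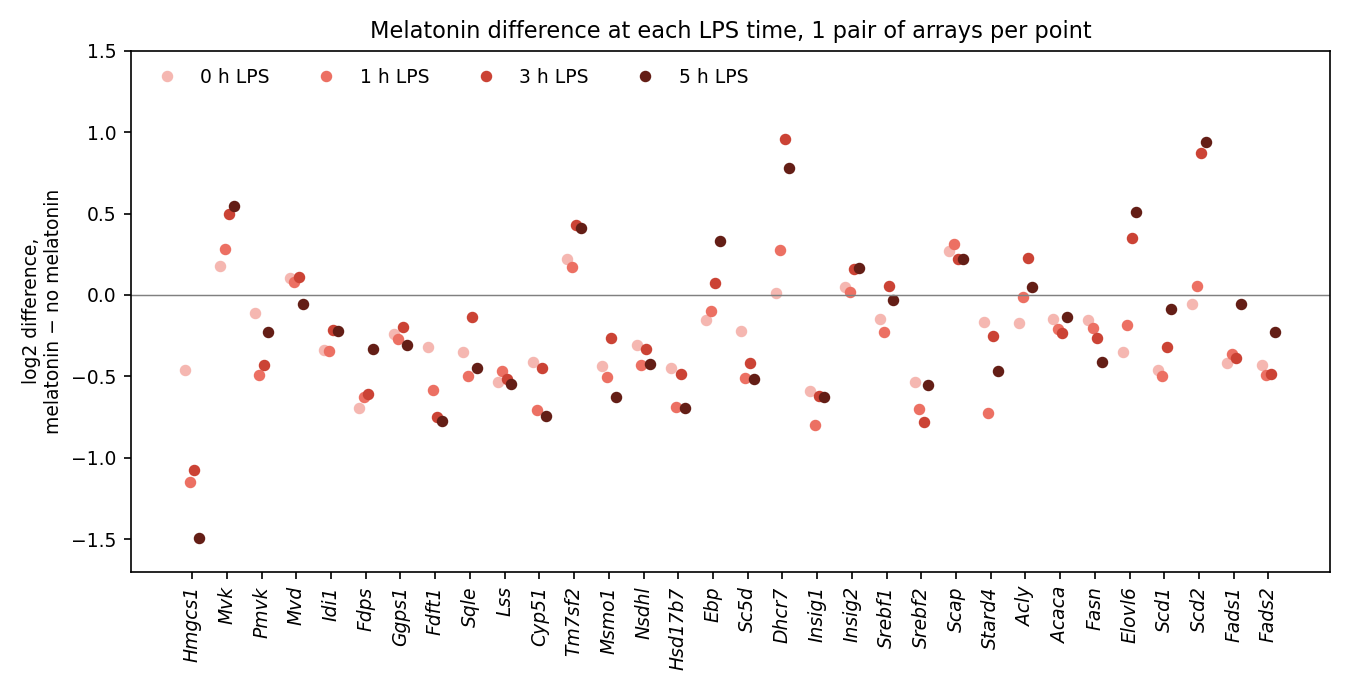
Log2 difference between the melatonin array and the array without melatonin at the same LPS time, 4 points per gene from light (0 h) to dark (5 h). Hmgcs1 spans -1.49 to -0.46, and Scd2 reaches 0.94 at 5 h.

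Whether melatonin changed the response to LPS was asked with the melatonin by LPS term. It sets the average melatonin difference over the LPS arrays against the one in cells given no LPS. The LPS arrays of the melatonin arm also came later after melatonin was added. LPS and time since melatonin therefore cannot be told apart in this term. No member and no feature on the array was called by limma. At an unadjusted p under 0.05 there were 2 members of 32 and 3.78% of all features. The largest terms were -0.78 ± 0.20 for Hmgcs1, 0.68 ± 0.37 for Scd2 and 0.66 ± 0.30 for Dhcr7 (adjusted p = 0.908 for each). With 2 residual degrees of freedom, differences of this size could not be told from the spread between arrays.

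Genes next to these pathways were counted for comparison. Over all features 1.67% rose and 0.279% fell at 1 h, and 18.7% rose and 15.1% fell at 3 h. At 5 h 24.9% rose and 19.3% fell, and with melatonin 15.3% rose and 25.4% fell. Of 21 further sterol and fatty acid genes 1 rose and 0 fell at 1 h, 4 rose and 7 fell at 3 h, 5 rose and 7 fell at 5 h, and 5 rose and 4 fell with melatonin. With melatonin, Acss2, an acetyl-CoA synthetase, rose by 0.62.

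Of 9 oxysterol genes and LXR targets 0 were called by limma at 1 h (1 at an unadjusted p under 0.05, against 14.9% of all features). At 3 h 2 rose and 1 fell, where 18.7% and 15.1% of all features did. At 5 h 2 rose and 3 fell, where 24.9% and 19.3% did. With melatonin 1 rose and 2 fell, where 15.3% and 25.4% did. Abcg1, a cholesterol exporter, fell by 3.68 at 3 h and by 3.65 at 5 h, and rose by 1.28 with melatonin. Its levels were 3.74, 3.36, 0.53 and 0.26 at 0, 1, 3 and 5 h in the melatonin arm, and 2.88, 2.09, -1.28 and -0.95 in the arm without melatonin. Ch25h, the cholesterol hydroxylase, was at least 2.79-fold higher at 3 h, with the arrays without LPS set to the lowest signal well above background of their array. Of the 8 arrays only both 3 h arrays had it well above background, so it passed the filter through the group where it is high, and its test, counted among the 2 rises at 3 h, is no support. At 5 h Nr1h3, the gene of an LXR, rose by 0.62, and with melatonin Soat1, which esterifies cholesterol, fell by 0.47. Of 10 genes of the isoprenoid branch 0 were called by limma at 1 h (1 at an unadjusted p under 0.05). In this branch 3 rose at 3 h and 2 at 5 h, none fell at either time, and 1 rose and 1 fell with melatonin. These counts stand beside the same shares over all features. Nus1, a dolichol synthesis subunit, showed the largest called LPS differences, up by 0.61 and 0.87 at 3 and 5 h. With melatonin Icmt, a methyltransferase of prenylated proteins, was up by 0.69, and Pdss1, of ubiquinone synthesis, was down (-0.33).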

How the data were processed

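Total RNA of 8 RAW264.7 cultures was hybridised to 8 one-colour arrays. The deposited intensity columns hold, per the file headers, background-subtracted processed signals from Agilent Feature Extraction 12.0.3.1, and well-above-background and outlier flags (other values, 0 or 1) came with them. The deposited log2 value table, the same median on every array (5.31), was an alternative; its tool is not given here. Of 62976 spots per array, 3671 were controls; these and outliers were dropped, and repeated spots were averaged. Signals were divided by the 75th percentile that Feature Extraction records per array (659 to 847) and taken to log2. Probes well above background on at least 2 arrays entered (30427), and each gene was represented by its probe of highest mean. Of the probes, 32994 matched a RefSeq accession and 10314 had no symbol; probe coordinates are those of the files, build mm9.

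Using R 4.3.3 and limma 3.58.1, an additive model of LPS time and melatonin (3 residual degrees of freedom, intensity trend) and a model with a melatonin by LPS term (2) were fitted over 20078 and 20077 features; calls were at a Benjamini-Hochberg adjusted p under 0.05. The code was tested on simulated data. All 33 genes are reported by name; of neighbouring lists, only the largest called rise and fall per comparison are named, and some of these are not reported here. Genes and lists were chosen with earlier results of these data known. Alternatives were quantile normalization, normexp background (offset 50), other filters and floors, no intensity trend, the mean over probes, the percentile over all probes, the deposited table, the treatment field's times and leaving out each array. The number of arrays limits the precision, and nothing in the labels says that cultures were independent.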

Additional observations from a re-analysis of the deposited data

Results flagged for a closer look

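The LPS change at 3 h differed from that at 1 h in 11 of 32 genes, by the limma test of the difference itself. Of all features 15.2% were called, 8.41% as rises and 6.79% as falls. It is the same comparison of 3 h with 1 h as given above. The 3 h change was lower for Scd2 (-1.86), Insig1 (-1.15), Dhcr7 (-1.10), Elovl6 (-0.96), Scd1 (-0.64), Srebf1 (-0.51), Mvk (-0.46), Sqle (-0.44) and Mvd (-0.40), and higher for Idi1 (0.50) and Ggps1 (0.58), all as log2 differences. Both changes share the arrays without LPS, which cancel in the difference. Insig1 kept this call with any array left out, and the other 10 genes did not.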

How the results depend on the processing

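No paired analysis was possible because replicate numbers pair nothing where every condition has 1 array, apart from the additive fit itself, which already matches the arms by LPS time. Each gene's call rests on single arrays, so p-values speak of additivity, not of repeated cultures. The share of all features called moved with the settings below. With an array left out, it was also smaller in the runs that gave the lowest counts at 1, 3 and 5 h. The same held between 1 and 3 h and for melatonin. At 1 h it was 1.95%, and 0.367% with no filter on dim probes, 0.498% with a common floor and 0.782% with no intensity trend. Between 1 and 3 h it was 15.2%, and 4.46%, 10.9% and 8.38% in these settings. For melatonin it was 40.7%, and 18.2% with the treatment field's times. At 1 h 3 members were called; the count was 1 with no filter on dim probes, with a common floor or with no intensity trend, and 1 to 2 with an array left out. Between 1 and 3 h 11 were called; the count was 6 with no filter, 6 with a common floor, 4 with no intensity trend and 1 to 10 with an array left out. With an array left out the counts were 5 to 15 at 3 h (15 in the full set), 13 to 22 at 5 h (23), 14 to 21 for melatonin (24), and 0 for 5 h against 3 h and for the melatonin by LPS term, which could not be fitted without either array lacking LPS. With the treatment field's times the count was 0 at 1 h, 3 h, 5 h and 3 h against 1 h and 9 for melatonin, and Insig1 turned to 0.17 between 1 and 3 h; the cause was not tested. Leaving that setting aside, 1 of 3 calls at 1 h, 4 of 15 at 3 h, 12 of 23 at 5 h, 11 of 24 for melatonin and 1 of 11 for 3 h against 1 h held under each alternative run.

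Class medians moved by more than the residual spread in some settings; the cause was not tested. Under quantile normalization and in the deposited table the SREBP2-type medians were -0.10 and -0.10 at 3 h and 0.19 and 0.20 at 5 h in the melatonin arm, and 0.50 and 0.495 at 5 h in the arm without melatonin. The SREBP1-type medians were -0.43 and -0.43 at 5 h in the melatonin arm and -0.41 and -0.41 at 3 h in the arm without it. With the mean over probes the SREBP1-type medians were -0.48 at 3 h and -0.655 at 5 h in the melatonin arm, and -0.70 and -0.96 in the arm without melatonin.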

Other observations

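Probes of a gene disagreed in size or sign for several genes. At 5 h of LPS the other probe of Mvk differed by 0.08, against -0.47 for the probe used, the other probe of Sc5d by 0.02, against 0.75, and 1 of the other probes of Insig2 by 0.27, against -0.33. The other probes of Lss differed by 0.84 and 0.19 at 5 h, against 0.82. The lower-signal probes of Fads1 differed by -1.09 and -0.97, against -0.60. Both probes of Hmgcs1 were lower with melatonin, by -1.04 and -1.05.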
